A study of Mus musculus with 4 samples.

Results

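The immediate early and stress response genes are a set of 32 genes, chosen by symbol, that cells switch on quickly after a stimulus or an insult. They comprise AP-1 and related bZIP factors, the EGR, NR4A, KLF and C/EBP transcription factors, early response and feedback genes, and heat shock genes. Each was read from its brightest probe set, and 29 of the 32 reached a log2 level of 6 in 1 or more of the 4 arrays, as did 5306 of 22180 genes in all. The 3 members under that floor were Jund, Maff and Cebpb, whose highest levels were 5.95, 5.87 and 5.59, while the members just above it, Dnajb1 and Klf4, reached 6.33 and 6.55. The arrays come from hepatic macrophages of C57/BL6 mice, sorted 48 h after reperfusion of the liver from wild-type animals (WT, 10 mice) and animals carrying the mPGES-1 knockout label (KO, 10 mice), which should lack the inducible prostaglandin E synthase. The cells were divided by the monocyte surface antigen Ly6C. The 4 groups are therefore WT Ly6C-hi, WT Ly6C-low, labelled KO Ly6C-hi and labelled KO Ly6C-low, and all 4 share the reperfused liver, so no array shows liver that was not reperfused. Each group is a single array, so no difference given here has a replicate check and none has a p-value. The deleted part of the gene, the cells in which it is deleted and how many mice stand behind an array were not given in the sources used here.

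Immediate early genes need no new protein synthesis for their induction: kinase cascades act on factors already bound at their promoters. MAP kinases act through the serum response factor at CArG boxes, and cyclic AMP acts through CREB at cyclic AMP response elements (CREs). Prostaglandin E2, the product of mPGES-1, raises cyclic AMP through its EP2 and EP4 receptors. The encoded transcription factors then drive a second wave of genes, while phosphatases and mRNA decay factors of the same class shut the response down. In macrophages the class is known to respond to microbial products, cytokines, adhesion and handling of the cells. The heat shock genes form a separate branch, driven by heat shock factor when proteins misfold.

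Promoter windows from RefSeq (build GRCm38.p6, 250 bases before to 50 after an annotated start) were listed for 28 of the 32 members. Egr1, Egr3, Cebpd and Ier2 had no window, so they were not searched for any site. CRE half-sites, written TGACG and searched on both strands, were found in 17 of the 28, against 23.0% of 27025 genes with a window. The NR4A genes held the most. Nr4a1, Nr4a2 and Nr4a3 had 4 half-sites each, a number reached by 0.255% of all genes and by no other member. Their 250 bases before the start are shown because the NR4A genes differed from each other in the arrays while sharing this feature, with half-sites on either strand in capitals. They lie at chr15:101266596-101266845 (plus strand), chr2:57124004-57124253 (minus strand) and chr4:48045055-48045304 (plus strand).
Nr4a1: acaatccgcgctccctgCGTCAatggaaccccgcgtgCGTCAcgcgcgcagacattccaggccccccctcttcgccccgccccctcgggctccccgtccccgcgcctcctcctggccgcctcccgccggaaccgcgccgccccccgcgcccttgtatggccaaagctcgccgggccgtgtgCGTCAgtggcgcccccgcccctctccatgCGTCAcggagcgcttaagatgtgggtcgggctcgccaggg
Nr4a2: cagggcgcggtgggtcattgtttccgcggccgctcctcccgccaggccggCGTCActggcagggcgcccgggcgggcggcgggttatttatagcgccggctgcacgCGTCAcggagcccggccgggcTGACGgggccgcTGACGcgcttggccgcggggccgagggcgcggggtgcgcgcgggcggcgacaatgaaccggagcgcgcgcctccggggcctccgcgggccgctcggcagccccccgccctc
Nr4a3: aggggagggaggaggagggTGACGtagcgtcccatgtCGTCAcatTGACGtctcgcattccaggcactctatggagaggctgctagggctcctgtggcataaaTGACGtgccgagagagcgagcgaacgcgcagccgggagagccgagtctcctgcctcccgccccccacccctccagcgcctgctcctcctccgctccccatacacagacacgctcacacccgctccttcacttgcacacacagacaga
No half-sites joined into a full CRE in these 3 windows.

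The full palindromic CRE, TGACGTCA, which contains overlapping half-sites on both strands, was present in Maff, Dusp1, Btg2 and Ppp1r15a, that is in 4 of 28 members against 2.03% of genes. The stretches of Btg2 (chr1:134079284-134079351, minus strand), Dusp1 (chr17:26508578-26508645, minus strand) and Ppp1r15a (chr7:45526269-45526310, minus strand) are shown with the element in capitals. These 3 feedback genes were at least 2-fold brighter in WT Ly6C-hi than in WT Ly6C-low. So were all 9 early response and feedback genes, so that gap does not set these 3 apart.
Btg2: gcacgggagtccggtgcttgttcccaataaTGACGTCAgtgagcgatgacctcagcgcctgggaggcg
Dusp1: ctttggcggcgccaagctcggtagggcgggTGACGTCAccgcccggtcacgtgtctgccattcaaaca
Ppp1r15a: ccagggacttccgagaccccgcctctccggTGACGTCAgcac
Counted from the start, the element began at -166 in Btg2, -143 in Dusp1 and -12 in Ppp1r15a.

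CArG boxes, the sites of the serum response factor, were present in Egr2 and Zfp36, 2 of 28 members against 1.81% of genes. They are shown in capitals in a stretch of Egr2 (chr10:67537464-67537533, plus strand) and of Zfp36 (chr7:28379247-28379316, minus strand), together with the 1 heat shock element found, in Hsph1 (chr5:149636280-149636308, minus strand), a gene of the branch with the smallest WT gap between fractions. The Egr2 stretch shows 1 of 2 distinct CArG boxes, the other lying in windows of downstream starts, and the Hsph1 element begins at base 15 after the start.
Egr2: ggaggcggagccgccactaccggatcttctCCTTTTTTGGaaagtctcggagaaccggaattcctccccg
Zfp36: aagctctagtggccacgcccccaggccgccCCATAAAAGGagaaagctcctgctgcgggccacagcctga
Hsph1: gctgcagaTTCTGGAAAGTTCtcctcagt
The heat shock element, GAANNTTCNNGAA on either strand, was in 1 of 28 members and 0.662% of genes. EGR sites, GCGNGGGCG on either strand, were in 11 of 28 members (Fosb, Fosl2, Maff, Nr4a1, Nr4a2, Klf2, Klf4, Dusp2, Zfp36, Btg2 and Gadd45b) against 6.27% of genes. Matches to the kappaB site were in 6 (Fos, Fosb, Fosl2, Maff, Nr4a1 and Ier3) against 5.14%. AP-1 sites, TGANTCA, and the NR4A site NBRE, AAAGGTCA, matched in 0 of 28 windows, which says only that these letters are not in these windows, and were in 8.97% and 1.7% of genes. All these matches describe letters and not binding.

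**Figure D1:**
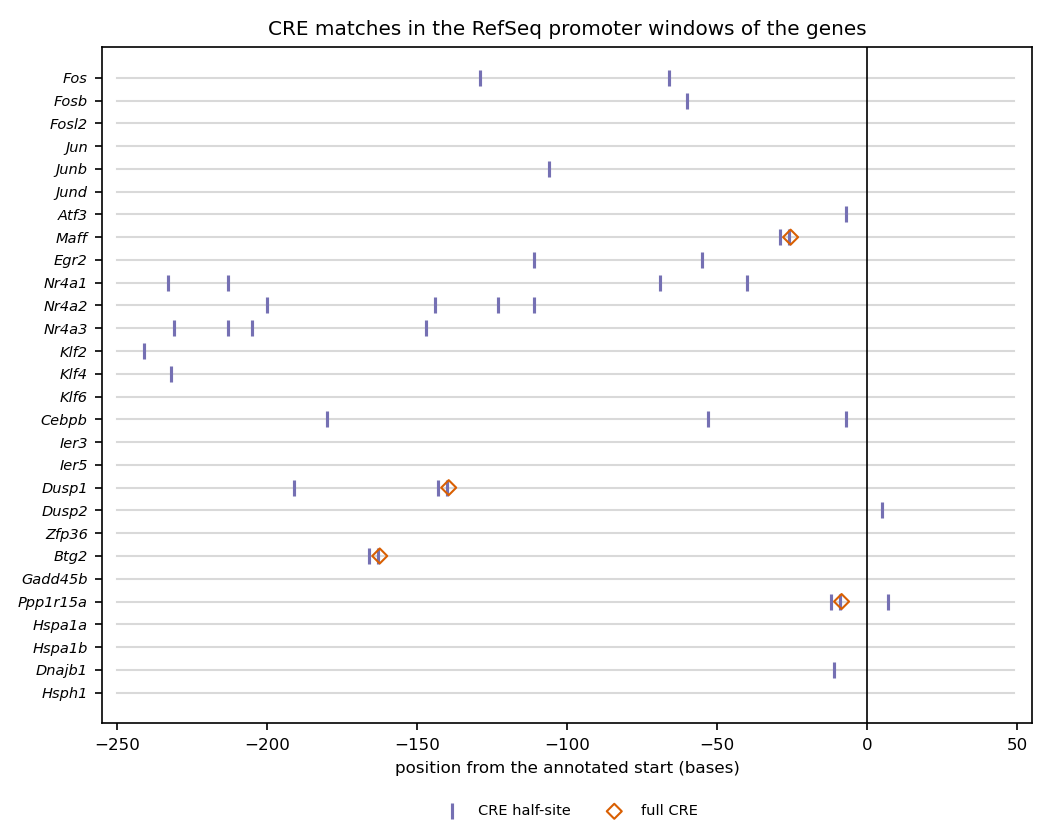
Positions of CRE half-sites (bars) and full CREs (diamonds) in bases from the annotated start, for the 28 members with a RefSeq promoter window, using for each gene the window with the most half-sites. The NR4A genes carry 4 half-sites each, and full CREs lie in Maff, Dusp1, Btg2 and Ppp1r15a.

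The 4 arrays differed in scale, and the genotype label was not borne out by its own gene. Ptges, which encodes mPGES-1, read 5.65 and 5.69 in the WT arrays and 6.32 and 6.2 in the arrays labelled KO, so each genotype difference below rests on the label alone, and the place of its probe set (17383712) relative to the deleted part was not given in the sources used here; a probe set outside it would check nothing. Ly6c2 followed the fraction label, at 7.70 and 8.94 in the Ly6C-hi arrays against 3.84 and 4.33. The median level of the 5306 genes was 6.67 (Ly6C-hi) and 6.36 (Ly6C-low) in WT and 6.17 and 6.55 under the KO label. Every difference is therefore given as deposited and, where it matters, after each array was centred on this median. As a guide to background, the brightest 2.5% of 1405 olfactory, vomeronasal and trace amine receptor genes began at 5.32 to 6.09 depending on the array, and differences that reach into that range are uncertain in size. On the same scale, the spread of a difference between 2 arrays over all genes was 0.50 (robust SD, from the genotype by fraction contrast, so it also holds any true difference of that kind).

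Most members were brightest in WT Ly6C-hi. This array held the highest level for 20 of the 29 members (18 after centring), against 46.8% of all genes as deposited and 29.2% after centring. The lowest level lay in WT Ly6C-low for 20 of 29 (16 after centring), against 23.0% of all genes (17.5%). It lay in labelled KO Ly6C-low for 8, against 16.5%, and in labelled KO Ly6C-hi for Hsph1 alone, against 46.6%. Those that were brightest elsewhere were Fosb, Atf3, Klf4, Hspa1a and Hspa1b in labelled KO Ly6C-hi (7.84% of all genes) and Jun, Cebpd, Dnajb1 and Hsph1 in labelled KO Ly6C-low (31.4%). After centring, 8 members were brightest in labelled KO Ly6C-hi and 3 in labelled KO Ly6C-low, against 24.4% and 24.3% of all genes, so the excess over 7.84% goes with the scale of that array.

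**Figure D2:**
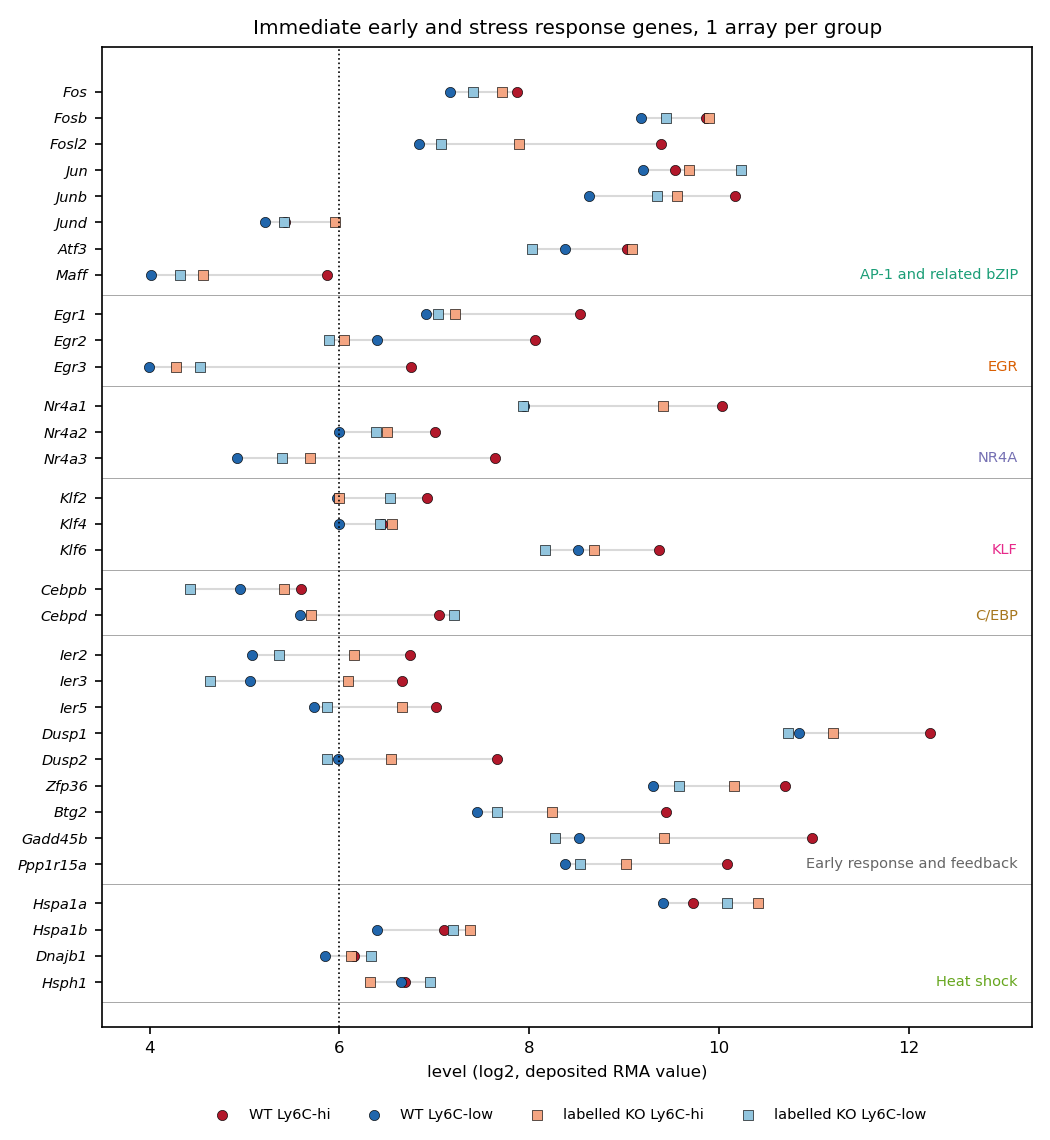
Deposited log2 level of each of the 32 genes in the 4 arrays, by family; the dotted line marks the log2 floor of 6. WT Ly6C-hi (dark red circles) stands to the right for the EGR genes, Nr4a3, Fosl2 and Gadd45b, while the heat shock genes lie close together.

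In WT livers, 18 of the 29 members were at least 2-fold brighter in Ly6C-hi than in Ly6C-low and 0 were at least 2-fold dimmer. Over all genes 18.3% were that much brighter and 7.73% dimmer. The median of the members was 1.40 on the log2 scale, against 0.22 for all genes. After centring, 16 of 29 members were at least 2-fold brighter and 0 dimmer, against 11.9% and 12.6% of all genes, and their median was 1.09. The gap was concentrated in the EGR, NR4A and feedback genes and small in the heat shock genes. The floor was passed by some genes only through WT Ly6C-hi, so these shares describe the set and do not test it.

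The 3 EGR genes encode zinc finger transcription factors induced by MAP kinase signalling. Egr1 read 8.54 (Ly6C-hi) and 6.91 (Ly6C-low) in WT and 7.22 and 7.04 under the KO label. Egr2, which also takes part in macrophage differentiation, read 8.06, 6.40, 6.05 and 5.89 in the same order. Egr3 read 6.75, 3.99, 4.28 and 4.53. In each the WT Ly6C-hi array stood at the top and apart from the other 3, and in the labelled KO the fractions lay within 0.25 of each other as deposited. After centring, the gaps under the KO label were 0.56 (Egr1), 0.53 (Egr2) and 0.13 (Egr3), against 1.31, 1.34 and 2.44 in WT. The WT gaps between fractions were 3.09-fold for Egr1, 3.15-fold for Egr2 and 6.77-fold for Egr3. For Egr3, only WT Ly6C-hi was above the background guide, which leaves the size of its gap uncertain. Egr2 was below the guide in labelled KO Ly6C-hi.

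The NR4A genes encode orphan nuclear receptors that restrain inflammatory gene expression in macrophages, and Nr4a1 is required for the Ly6C-low monocyte of blood. Nr4a1 read 10.03 (Ly6C-hi) and 7.94 (Ly6C-low) in WT and 9.41 and 7.93 under the KO label. Its level was thus higher in the Ly6C-hi array under either label, by 4.27-fold in WT and 2.78-fold under the KO label. Nr4a3 read 7.64, 4.92, 5.69 and 5.39 in the same order, a gap of 6.58-fold in WT and 1.23-fold under the KO label. Only its WT Ly6C-hi value was above the background guide. Nr4a2 read 7.01, 5.99, 6.5 and 6.39, with a WT gap of 2.03-fold that was under 2-fold after centring (0.71).

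AP-1 is a dimer of FOS and JUN family proteins, and its members differed in how far apart the fractions lay. Fosl2 encodes Fra-2, a more lasting FOS family partner, and read 9.39 (Ly6C-hi) and 6.84 (Ly6C-low) in WT and 7.89 and 7.07 under the KO label. Junb, a JUN protein that often opposes c-Jun, read 10.17, 8.63, 9.56 and 9.35. These were the only members of the family above the floor with a WT gap of at least 2-fold, 5.86-fold and 2.90-fold. Fos, the founding immediate early gene, read 7.87, 7.17, 7.71 and 7.41, and Fosb read 9.86, 9.18, 9.90 and 9.44. The WT gaps of Fos and Fosb, 1.62-fold and 1.61-fold, were under 2-fold, as was that of Jun (9.54 against 9.20). Atf3, a stress-induced repressor of inflammatory genes, read 9.03 and 8.38 in the WT fractions. Below the floor, the small Maf gene Maff read 5.87 and 4.01, while Jund differed by 0.21.

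All 9 early response and feedback genes were at least 2-fold brighter in WT Ly6C-hi, and 8 of 9 after centring, where Ier5 stood at 0.97. Gadd45b, a stress sensor that feeds into p38 and JNK signalling, read 10.98 (Ly6C-hi) and 8.53 (Ly6C-low) in WT and 9.42 and 8.27 under the KO label. Btg2, an antiproliferative gene that also promotes mRNA deadenylation, read 9.44, 7.45, 8.24 and 7.66. Dusp1, the phosphatase that inactivates p38 and JNK, read 12.23, 10.84, 11.20 and 10.73. In all 3 the order was WT Ly6C-hi first, labelled KO Ly6C-hi next and both Ly6C-low arrays last. Ppp1r15a (GADD34, which restores translation after stress) had a WT gap of 1.70, Zfp36 (tristetraprolin, which destabilises cytokine mRNAs) of 1.40, and the phosphatase gene Dusp2 of 1.68. The gaps of Ier2, Ier3 and Ier5 were 1.66, 1.61 and 1.28. Ier3 was above the background guide in WT Ly6C-hi only. In WT Ly6C-low, Ier2 (5.08), Ier5 (5.73) and Dusp2 (5.98) were not above that array's guide either, 5.98. The sizes of the WT gaps of Ier2, Ier3, Ier5 and Dusp2 are therefore uncertain.

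The KLF and C/EBP genes showed smaller or less even gaps. Klf2, Klf4 and Klf6, zinc finger factors of which the first 2 temper macrophage and endothelial activation, had WT gaps of 0.95, 0.47 and 0.86, all under 2-fold. Cebpd, a bZIP factor of the acute phase response, read 7.05 (Ly6C-hi) and 5.58 (Ly6C-low) in WT and 5.70 and 7.21 under the KO label. It was bright in WT Ly6C-hi and labelled KO Ly6C-low and below the background guide in the other 2, and was the only one of the 29 with gaps of at least 2-fold in opposite directions. Cebpb, below the floor, differed by 0.64 in WT.

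The heat shock genes were the family with the smallest WT gap. Hspa1a and Hspa1b, which encode the inducible HSP70 chaperone, read 9.73 and 7.10 in the WT Ly6C-hi array and 9.41 and 6.40 in its Ly6C-low counterpart. Their co-chaperone gene Dnajb1 (HSP40) read 6.15 and 5.85, and the nucleotide exchange factor gene Hsph1 read 6.69 and 6.65. The family median was 0.31 as deposited and -0.01 after centring, and 0 of 4 reached 2-fold. Hspa1a and Hspa1b are near-identical copies, so the split of signal between them is uncertain, and a further probe set annotated to both, not used here, read 4.13 to 4.51.

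Under the KO label the gap between fractions was smaller for most members. As deposited, 4 of 29 were at least 2-fold brighter in Ly6C-hi (Atf3, Gadd45b, Ier3 and Nr4a1) and 1 at least 2-fold dimmer (Cebpd), against 4.33% and 18.1% of all genes. The median was 0.32, against -0.31 for all genes. After centring, the brighter members were 8 (Dusp2, Fosl2, Ier2 and Ier5 joined them) and the dimmer 1, against 10.7% and 11.0%, with a median of 0.70. Of the 18 members with a 2-fold gap in WT, 3 had it under the KO label as deposited, namely Gadd45b, Ier3 and Nr4a1; after centring it was 6 of 16. Among all genes with a 2-fold gap in WT, 14.6% of 970 had it under the KO label as deposited and 40.7% of 632 after centring, so the members' shares lay near the background and say nothing particular about them. The EGR median was 0.15 as deposited and 0.53 after centring, and the feedback gene median 0.67 and 1.05. The heat shock median was -0.01 and 0.37.

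**Figure D3:**
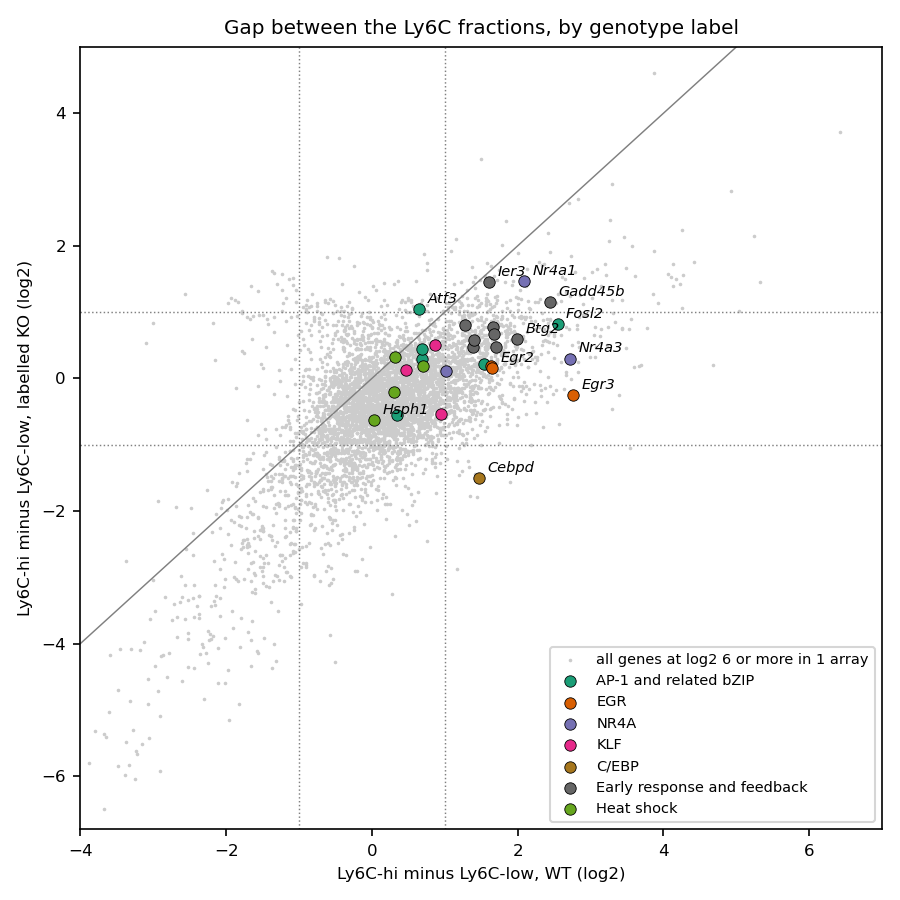
Ly6C-hi minus Ly6C-low (log2) in WT on the horizontal axis and under the KO label on the vertical axis, for 5306 genes (grey) and 29 members (colours by family); dotted lines mark 2-fold and the solid line equality. Most members lie to the right of 1 in WT and below 1 under the KO label, Nr4a1, Ier3 and Gadd45b exceed 1 on both axes, and Cebpd lies at 1.47 and -1.51.

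Between the Ly6C-hi arrays, 11 of the 29 members were at least 2-fold dimmer under the KO label and 0 at least 2-fold brighter. Over all genes 17.7% were that much dimmer and 2.07% brighter, and the medians were -0.60 for the members and -0.47 for all genes. After centring, 4 of 29 were at least 2-fold dimmer and 1 brighter, against 5.8% and 6.28% of all genes, and the median of the members was -0.10. This array pair carries the largest difference in scale, and the count of dimmer members was 7 of 30 with quantile normalisation (10.5% of all genes) and 5 of 29 with lowess (7.48%).

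The 4 members that stayed at least 2-fold dimmer after centring were Egr3 (-2.47 as deposited, -1.96 centred), Egr2 (-2.01 and -1.51), Nr4a3 (-1.95 and -1.45) and Gadd45b (-1.56 and -1.06). In labelled KO Ly6C-hi, Egr3 (4.28), Nr4a3 (5.69) and Egr2 (6.05) were below the background guide of that array, 6.09. The sizes of these 3 differences are therefore uncertain. Fosl2 stood at -1.5 as deposited, just short of 2-fold after centring and at -1.04 with lowess. The others at least 2-fold dimmer as deposited were Cebpd (-1.35), Egr1 (-1.32), Btg2 (-1.20), Dusp2 (-1.12), Ppp1r15a (-1.06) and Dusp1 (-1.03). All 6 were under 2-fold after centring, at -0.53 to -0.85. Fosb, Atf3, Jun and Klf4 differed by 0.03 to 0.14 as deposited and by 0.54 to 0.64 after centring. Hspa1a stood on the other side, 1.60-fold brighter as deposited and at 1.18 after centring, the 1 brighter member in the centred count; Hspa1b stood at 0.28 and 0.79.

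**Figure D4:**
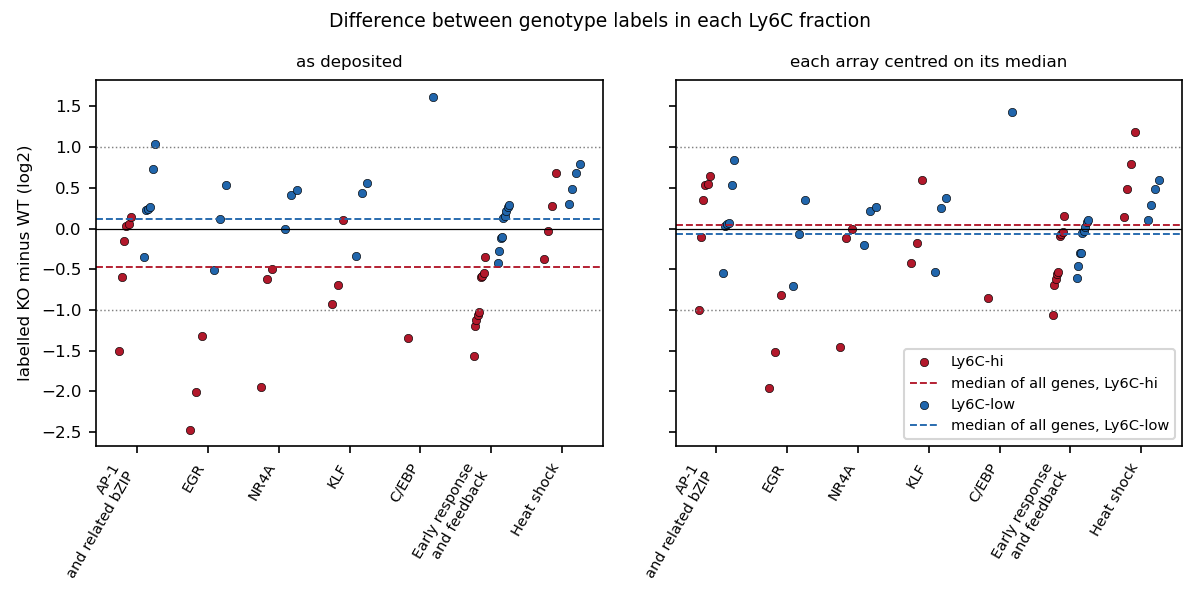
Labelled KO minus WT (log2) for the 29 members by family in Ly6C-hi (red) and Ly6C-low (blue), as deposited on the left and with each array centred on its median on the right; dashed lines are medians of all 5306 genes and dotted lines 2-fold. EGR genes reach -2.47 in Ly6C-hi as deposited and -1.96 after centring, while heat shock genes lie at or above 0.11 in every centred value.

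Between the Ly6C-low arrays the members differed little. As deposited, 2 of 29 were at least 2-fold brighter under the KO label and 0 dimmer, against 5.92% and 0.792% of all genes, and the median was 0.27 against 0.12. The brighter members were Cebpd (7.21 against 5.58, 3.08-fold) and Jun (10.23 against 9.20, 2.05-fold). After centring, Cebpd stood at 1.43 and Jun at 0.84, so that 1 of 29 was brighter and 0 dimmer, against 3.94% and 1.88% of all genes. Junb was 1.65-fold and Hspa1b 1.73-fold brighter as deposited. The lowest member was Egr2, at -0.51, and the heat shock genes ranged from 0.30 to 0.79.

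The gap between fractions under the KO label, less the gap in WT, was negative for 28 of the 29 members as deposited, Atf3 being the exception at 0.40, and for 82.7% of all genes, so most of this count goes with the shift of the arrays. It was at or below -1 for 12 of 29, and at or above 1 for 0, against 32% and 3.09% of all genes, with medians of -0.89 and -0.67. After centring it was negative for 17 of 29, against 48.2% of all genes, and at or below -1 for 4 (Cebpd, Egr3, Fosl2 and Nr4a3), against 8.41% of all genes, and at or above 1 for Atf3 (1.09), against 9.78%. Egr3 had the value -3.00 as deposited and -2.31 centred, Cebpd -2.98 and -2.28, Nr4a3 -2.42 and -1.72, and Fosl2 -1.73 and -1.03. For Nr4a1 it was -0.62 and 0.08. Egr3 and Nr4a3 were above the background guide in 1 array and Cebpd in 2, so these sizes are uncertain. Each fraction gap shares an array with each genotype difference, so these are not independent of each other, while the WT and KO fraction gaps share none.

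Neighbouring genes of the same pathways, from lists that hold no member and counting only genes at the log2 floor, were read against the same background of 18.3% brighter and 7.73% dimmer in the WT fraction gap and 17.7% dimmer in labelled KO Ly6C-hi. Of the MAP kinase cascade, 4 of the 12 genes at the floor were at least 2-fold brighter in WT Ly6C-hi than in WT Ly6C-low and 0 dimmer: Map3k5 (2.05), Mapkapk2 (1.94), Map3k8 (1.58) and Map2k3 (1.56). Mapkapk2 encodes MK2, the p38 target that phosphorylates tristetraprolin, and read 9.58 and 7.64 in the WT fractions and 8.49 and 7.92 under the KO label. Of the other phosphatases and feedback genes, 2 of 5 were brighter and 0 dimmer, Dusp16 (2.73) and Dusp5 (1.81), both of which were also at least 2-fold dimmer in labelled KO Ly6C-hi than in WT Ly6C-hi (-2.73 and -1.47). Dusp16, a JNK phosphatase gene, read 7.88 in WT Ly6C-hi and 5.15 to 5.16 in the other 3 arrays, all below the background guide. After centring, the brighter counts of these 2 lists stayed at 4 of 12 and 2 of 5, against 11.9% of all genes. Centred, the Ly6C-hi genotype difference was -2.23 for Dusp16 and -0.97 for Dusp5.

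Among AP-1 partners 3 of the 10 genes at the floor were at least 2-fold brighter in WT Ly6C-hi and 0 dimmer, led by Jdp2 (2.99), a JUN dimerisation partner, with Mafk (1.23) and Nfe2l2 (1.17), and 5 of 10 were at least 2-fold dimmer in labelled KO Ly6C-hi than in WT Ly6C-hi. Of the serum response and CREB factors, 2 of 6 were brighter in the WT gap, the CREB coactivator genes Crtc2 (1.47) and Ep300 (1.20), and Creb1 itself differed by 0.44. Of other KLF genes 2 of 4 were brighter (Klf10 1.69, Klf3 1.42), and of other C/EBP, GADD45, BTG and ZFP36 family genes 3 of 7 (Tob1 1.46, Btg1 1.40, Ddit3 1.27). Of the EGR corepressors Nab1 and Nab2, 0 of 2 reached 2-fold (0.56 and 0.39). Heat shock factors and other chaperones had 2 of 17 brighter, Hspa4l (2.07) and Dnajb9 (1.39), and a median of 0.01; the constitutive chaperone gene Hspa8 read 9.74, 9.81, 9.80 and 9.82. These counts are as deposited. After centring, AP-1 partners had 1 of 10 brighter and 1 dimmer (Maf, -1.26), against 11.9% and 12.6% of all genes. Of them, 3 of 10 were dimmer in labelled KO Ly6C-hi than in WT Ly6C-hi, against 5.8%. The brighter counts were 1 of 6 serum response and CREB factors and 2 of 4 other KLF genes. In the C/EBP and related families 2 of 7 were brighter, and the chaperones had 2 of 17 brighter and 1 dimmer.

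Other cell types moved with the arrays in which the members differed. The 15 neutrophil markers had a mean level of 9.33 (Ly6C-hi) and 5.76 (Ly6C-low) in WT and 7.12 and 5.36 under the KO label, the order of the 4 arrays that Gadd45b and Dusp1 also had. Of the 14 at the floor, 14 were 2-fold or more brighter in the WT Ly6C-hi array than in its Ly6C-low counterpart, and 13 at least 2-fold dimmer in labelled KO Ly6C-hi than in WT Ly6C-hi. Their median differences, 4.0 and -2.68, were larger than those of the members. Neutrophils are known to express immediate early genes too. The 15 sinusoidal endothelial markers had mean levels of 4.82, 7.80, 4.2 and 9.38, highest in labelled KO Ly6C-low, the array in which Cebpd, Jun, Dnajb1 and Hsph1 were brightest. In WT Ly6C-low, where the markers averaged 7.80, Cebpd (5.58), Jun (9.20) and Dnajb1 (5.85) had their lowest levels. Hsph1 had its lowest level in labelled KO Ly6C-hi (6.32), where the markers averaged 4.2. None of the 15 endothelial markers was above the background guide in labelled KO Ly6C-hi and 4 of 15 were in WT Ly6C-hi. The 9 macrophage markers with a value had mean levels of 8.26 to 8.77, and the lowest of them, Mertk in labelled KO Ly6C-hi, read 6.41, so macrophage genes were present in every array. In bulk RNA of this kind, fewer cells of a type and less RNA per cell cannot be told apart, and the part of neutrophil or endothelial RNA in the members' differences was not tested.

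**Figure D5:**
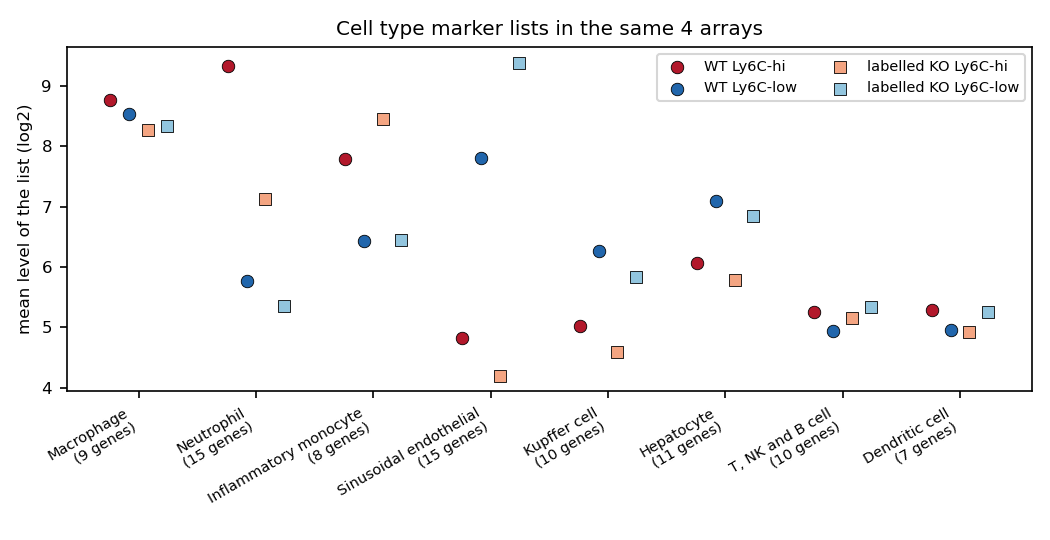
Mean deposited log2 level of each cell type marker list in the 4 arrays, with the number of genes that had a value. Neutrophil markers are highest in WT Ly6C-hi (9.33) and sinusoidal endothelial markers in labelled KO Ly6C-low (9.38), while macrophage markers lie between 8.26 and 8.77.

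Inflammatory monocyte markers showed another order, with mean levels of 7.78 (Ly6C-hi) and 6.43 (Ly6C-low) in WT and 8.44 and 6.44 under the KO label. They were brightest in labelled KO Ly6C-hi. There, 11 of 29 members were at least 2-fold below WT Ly6C-hi as deposited, against 17.7% of all genes. After centring it was 4 of 29, against 5.8%. The part of monocyte RNA in the members' differences was not tested. Kupffer cell markers had means of 5.02, 6.27, 4.60 and 5.83 and hepatocyte markers of 6.07, 7.09, 5.79 and 6.84, higher in both Ly6C-low arrays. The Kupffer cell list includes Xcr1, which is also in the dendritic cell list and read 4.57 to 5.24, below the floor. Mean levels of the T, NK and B cell markers lay between 4.94 and 5.34, and those of the dendritic cell markers between 4.93 and 5.29. Only 4 of 12 and 2 of 8 listed genes were at the floor. Single genes ranged from 3.15 to 9.29 and from 3.12 to 8.09, so these means do not show how each gene differed.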

How the data were processed

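The authors deposited 1 log2 value per probe set and array, made by RMA in Expression Console, per the labels; that the scale is log2 was taken from the values' range. Per the labels, arrays were Affymetrix Mouse Gene 2.0 ST and 5 ng of total RNA per array was amplified. Software versions were not given in the sources used here. GEO's platform annotation gave 1 symbol for 23521 of 41345 probe sets, several for 1814 and none for 16010; 1-symbol probe sets were named through Entrez IDs where RefSeq held them (23328). For genes with several probe sets (1082) that with the highest mean was used.

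Differences of log2 values were counted at 2-fold among genes at log2 6 or more in at least 1 of 4 arrays. With 1 array per group there was no test; precision is limited by how few arrays there are. Alternatives were centring, quantile normalisation, lowess, a floor of 7, none or in the brighter array of the pair, the mean of probe sets, and 1.5-fold. Named were all 32 members, Ptges and Ly6c2, and in each list up to 4 genes with the largest difference, plus Hspa8, Creb1 and Mertk, named after their values were seen. Members and lists were chosen with earlier results of these data known. Steps were tested on simulated data. Python 3.11.15, numpy 2.4.6, pandas 2.3.3, statsmodels 0.14.6 and matplotlib 3.10.9 were used.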

Additional observations from a re-analysis of the deposited data

Results flagged for a closer look

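Cebpd and Junb differed in opposite directions, by at least 1.5-fold each way, where the same contrast was made in 2 settings; with 1 array per group these differences between settings were not tested. For Cebpd, Ly6C-hi minus Ly6C-low was 1.47 for WT and -1.51 for the arrays labelled KO, and labelled KO minus WT was -1.35 in Ly6C-hi and 1.62 in Ly6C-low. These 4 values come from the same 4 readings. For Junb, labelled KO minus WT was -0.60 in Ly6C-hi and 0.73 in Ly6C-low as deposited, and -0.10 and 0.54 after centring.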

How the results depend on the processing

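Members at least 2-fold brighter in WT Ly6C-hi than in WT Ly6C-low numbered 16 of 29 centred (11.9% of all genes). They were 17 of 29 with lowess (14.5%), 17 of 30 with quantile normalisation (13.8%) and 15 of 22 at a floor of 7 (24.5%). Without a floor they were 19 of 32 (5.35%). The floor in the brighter array of the pair and the mean of probe sets each gave 18 of 29 (20.3% and 18.4%). At 1.5-fold the count was 24 of 29 (32.6%). Under every alternative 0 were dimmer, and the median was 1.09 to 1.44. The median of the Ly6C-hi genotype difference shrank with scaling, from -0.60 as deposited to -0.33 with quantile normalisation, -0.23 with lowess and -0.10 centred. In the same order, that of the difference of differences was -0.89, -0.54, -0.39 and -0.20. That of the Ly6C-low genotype difference was 0.27, 0.18, 0.17 and 0.07. The median of the KO fraction gap grew instead, at 0.32, 0.49, 0.48 and 0.70. With centring, 8 members were brighter in labelled KO Ly6C-hi than in labelled KO Ly6C-low (4 as deposited), against 10.7% of all genes, also centred. Between the Ly6C-hi arrays, 4 were dimmer and 1 brighter under the KO label (11 and 0), against 5.8% and 6.28%. Between the Ly6C-low arrays, 1 was brighter under the KO label (2), against 3.94%. The difference of differences was at or below -1 for 4 and at or above 1 for 1 (12 and 0), against 8.41% and 9.78%. With lowess these counts were 7 for the KO fraction gap (7.46% of all genes), 5 dimmer and 1 brighter for the Ly6C-hi genotype difference (7.48% and 4.33%), and 5 for the difference of differences (12.5%). Quantile normalisation gave 7 dimmer of 30 members in Ly6C-hi (10.5%). At 1.5-fold, the KO fraction gap counted 9 brighter and 2 dimmer (11.5% and 34.3% of all genes), the genotype difference 1 brighter in Ly6C-hi (5.2%) and 5 brighter in Ly6C-low (16.7%), and the difference of differences 19 at or below the threshold (54.1%). Beyond the scaling itself and the looser threshold, the cause was not tested. Only the 48 member differences of at least 2-fold as deposited were recomputed singly, giving 192 values. Of these, 0 changed sign, though several lost 2-fold. Smaller differences were outside this count, and some did change sign. Fos in the Ly6C-hi genotype difference went from -0.15 as deposited to 0.35 centred. Moves were set against the spread over all genes, 0.50, or 0.71 for the difference of differences. In Ly6C-hi, Btg2 (-0.69 centred), Egr3 (-1.96 centred) and Dusp2 (-0.61 with lowess) lay at that limit. Centring moves every gene of a comparison by the same amount, so Btg2 and Egr3 passed the limit only through rounding. No paired analysis was possible because each group has 1 array. Leaving out an array would remove a group, so it was not run.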
